A study of Rattus norvegicus with 10 samples.

Results

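Genes for the plasma proteins of blood clotting and of complement, most of which the liver makes and secretes, were followed in RNA sequencing of rat liver. A list of 41 gene symbols chose them, and 39 were rows of the deposited table of 12555 genes. Of these 39, 22 belong to coagulation with its inhibitors and to clot breakdown, and 17 of 19 listed belong to complement. The complement genes C2 and Mbl2 were not analysed here. All 39 passed the filter on low counts, with at least 174 counts in every library. The 10 libraries were from wild-type Rattus norvegicus, 5 from the normal diet group (normal 1 to 5) and 5 from a group whose dams ate a diet with calories cut by 30% through pregnancy (restricted 1 to 5). The series title speaks of small-for-gestational-age offspring and catch-up growth, and the comparison of the diets asks how liver RNA differs after such a pregnancy. The labels give the tissue as liver and the cells as hepatocytes of a cell line, whereas the design text speaks of liver tissue. Neither the labels nor the design text states strain, sex, age, litter, feeding state, or whether each library came from its own animal. The p-values therefore measure the spread between these libraries, which may in part be technical.

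As background, clotting proceeds as a chain of plasma serine proteases that ends when thrombin cuts fibrinogen into fibrin, while antithrombin and the protein C system hold it in check and plasmin dissolves the clot. Complement is a related chain of proteases that is started by C1, by mannose-binding lectins or by the alternative pathway, meets at C3 and ends with C5 to C9 forming a pore in a target membrane. Hepatocytes are the main source of most of these proteins, and several of them, fibrinogen among them, are acute phase proteins whose genes respond to interleukin-6.

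Total counts ran from 14936156 to 22104957 per library. All 7 hepatocyte markers looked at were in the table. Their levels are in CPM (counts per 1000000, scaled by TMM, a factor that corrects for library composition). The sums, mostly Alb, were 160118 to 191417 CPM in normal and 140974 to 219209 in restricted libraries. In the edgeR test used below, Ttr alone of these markers was called (log2 fold change -0.71, adjusted p 0.0497), and 1 of the 7 was positive. Markers of macrophages (11 of 11 in the table) and of endothelium (7 of 8) were present as well, at 929 to 2559 and 454 to 519 CPM over all libraries, so the RNA was not of hepatocytes alone. The Y-linked gene Kdm5d had 280 to 392 counts in the normal libraries and 309 in restricted 5, but 0 in restricted 1 to 4, where a floor of 3 counts allows up to 0.134 to 0.207 CPM. Cyp2c13, a male-specific cytochrome of adult rat liver, ran with Kdm5d (154 to 2203 CPM where Kdm5d had counts, 1.29 to 8.29 in restricted 1 to 4), and the female-biased Cux2 ran against it (1.07 to 5.48 against 13.6 to 24.01). The order is that known of male rat liver in the normal libraries and restricted 5, and of female liver in restricted 1 to 4. The labels state no sex, Kdm5d runs with diet in 9 of 10 libraries, and diet and sex cannot be told apart in restricted 1 to 4. In every fit below with Kdm5d as a covariate, the diet effect therefore rests largely on restricted 5.

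None of the 39 genes passed an adjusted p of 0.05 in edgeR's quasi-likelihood test, against 506 of 12367 genes tested (4.09%). At an unadjusted p of 0.05, 5 of the 39 passed (12.8%), namely Serping1, F5, Mbl1, C5 and C6, beside 2484 of all genes (20.1%). DESeq2 called these same 5 genes at adjusted p of 0.0132 to 0.0462, beside 8.48% of all genes in that test. The authors' deposited table gave them adjusted p-values of 0.0129 to 0.0452, also beside 8.48% of its genes. These values rest on the same counts and nearly equal those of DESeq2, so they are not a separate result. None of the 39 met the authors' rule of p below 0.05 with a log2 fold change beyond 1 in either direction, which 3.82% of its genes met. The groups did not overlap for 1 of the 39, C6, beside 6.35% of all genes. For 32 of the 39 (82.1%) the 95% interval of the fold change lay inside a 1.5-fold change either way, as it did for 55.4% of all genes tested, and the 7 exceptions were F7, F5, Serping1, Cfd, C5, C6 and C9.

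**Figure D1:**
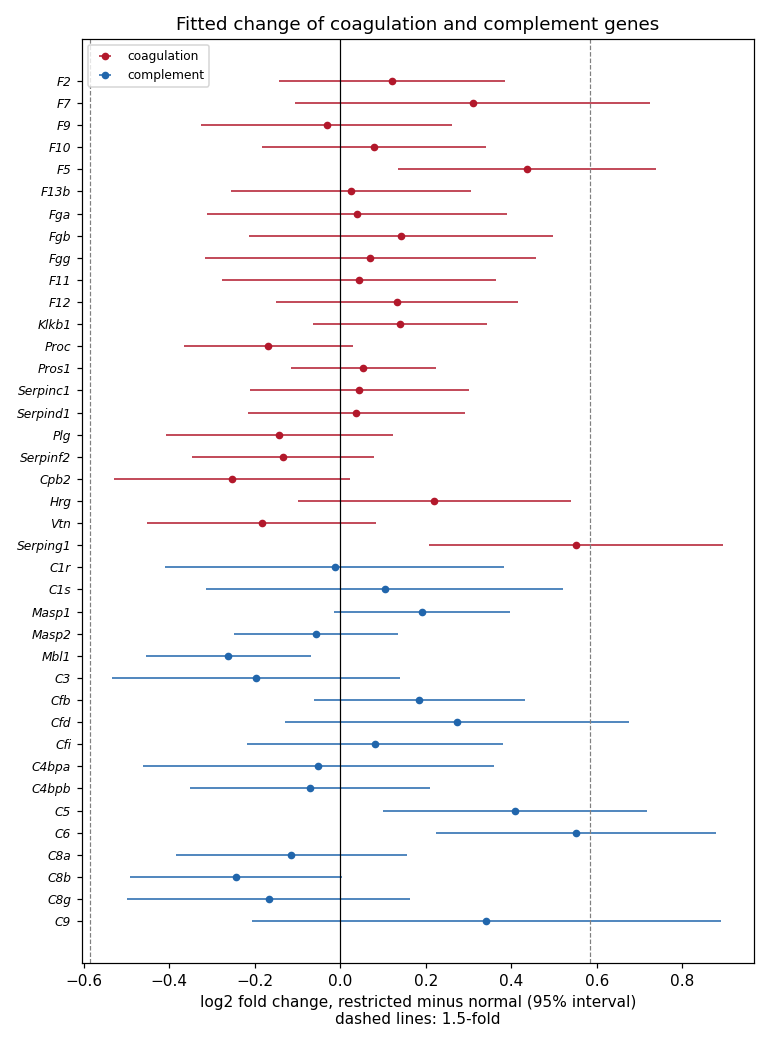
Log2 fold change of restricted minus normal libraries (x axis) for 22 coagulation genes (red) and 17 complement genes (blue), with 95% intervals of the edgeR fit over 5 libraries a group; dashed lines mark a 1.5-fold change. The estimates run from -0.26 for Mbl1 to 0.55 for Serping1 and C6. The intervals of 4 genes, F5, Serping1, C5 and C6, lie wholly above 0, and that of Mbl1 lies wholly below 0.

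Set side by side, the coagulation and complement genes had similar and small changes. The median log2 fold change was 0.05 for coagulation, with 16 of 22 genes positive, and -0.01 for complement, with 8 of 17 positive; over all genes tested the median was 0.01, with 6462 of 12367 positive. Without restricted 4 the coagulation median was -0.01. With Kdm5d as a covariate it was -0.14 and the complement median -0.03, so that the difference of coagulation minus complement turned from 0.06 to -0.11. The typical size of the change, as the median of absolute log2 fold changes, was 0.13 for coagulation, 0.18 for complement and 0.18 for all genes. No test was made of the difference between the classes, since their genes were chosen with earlier results known.

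The classes took a sizeable part of each library. Coagulation genes held 4.02%, 3.95%, 3.76%, 3.91% and 4.03% of all counts in normal 1 to 5 and 3.96%, 3.90%, 3.63%, 4.84% and 4.12% in restricted 1 to 5. For complement genes the shares were 3.68%, 2.92%, 2.67%, 3.42% and 3.03% under the normal diet and 3.03%, 3.11%, 2.61%, 3.39% and 2.90% after restriction. The restricted values overlapped the normal ones in both classes, and restricted 4 was the highest of all 10 libraries for coagulation. Most of the counts came from few genes, since the fibrinogen chains alone held 1.91 ± 0.128% in normal and 2.04 ± 0.438% in restricted libraries, and C3 alone 2.01 ± 0.337% and 1.77 ± 0.203% (SD, n = 5 per group).

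**Figure D2:**
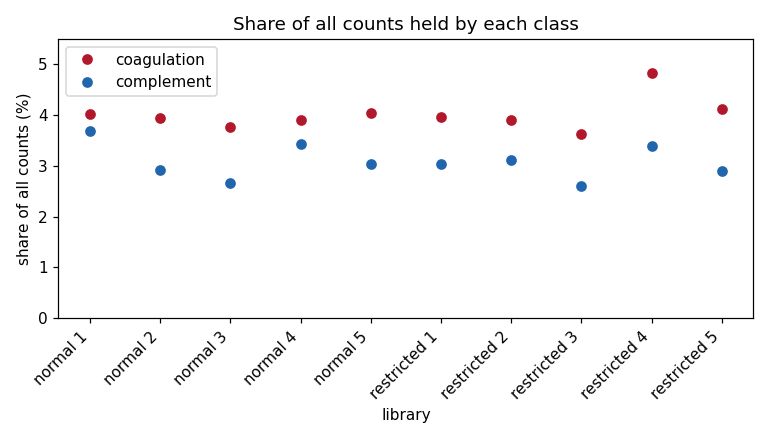
Share of all counts (y axis, %) held by the 22 coagulation genes (red) and the 17 complement genes (blue) in each library (x axis). Coagulation runs from 3.63% to 4.84%, with the peak in restricted 4, and complement from 2.61% to 3.68%, with the peak in normal 1.

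Per length of gene, the deposited FPKM values of the normal libraries spanned from 11.9 ± 1.71 for C8g to 2012 ± 114 for Vtn (mean ± SD, n = 5). Vtn, Fgg, Fga, C3 and Fgb led the order, at ranks 19, 22, 24, 28 and 30 of all 12555 genes. Fgg stood at 1757 ± 157, Fga at 1499 ± 120.5, C3 at 1309 ± 219 and Fgb at 1204 ± 45.9 FPKM. Neighbours in this order, from Vtn to Fgb, were apart by less than the sum of their SDs. These levels rest on the gene lengths used, which the counts and FPKM imply to be 1.02 kb for Cfd and up to 15.4 kb for C3 and 15.8 kb for C8g, a gene of a small protein. How the lengths were set was not stated, and the low rank of C8g and the lead of Vtn rest on them. In CPM, which is not scaled by length, the normal mean of Vtn was 3340. That was below C3 (20218), Fga (7786), Fgb (5760) and Fgg (5718).

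Among the vitamin K-dependent procoagulants, F2, F7, F9 and F10, 0 of 4 passed the test and 3 were positive. F2 (ENSRNOG00000016325) encodes prothrombin, the precursor of thrombin. It had 2545, 2561, 2501, 2653 and 3024 CPM in normal 1 to 5 and 2726, 2521, 3299.9, 3307 and 2592 in restricted 1 to 5. Restricted 3 and 4 lay above every normal library and the other restricted libraries lay within the normal range. The log2 fold change was 0.12 ± 0.12 (SE; 95% interval -0.14 to 0.39; adjusted p 0.617). F7, the protease that starts clotting with tissue factor, ranged from 70.4 to 97.3 CPM in normal and from 65.2 to 148 in restricted libraries. Its lowest value was in restricted 5 and its highest in restricted 4 (log2 fold change 0.31 ± 0.19, adjusted p 0.385). With Kdm5d as a covariate, a fit resting largely on restricted 5, the F7 change was -0.46. F10, which converts prothrombin to thrombin, ranged from 429 to 494 and from 413 to 642 CPM. F9, the hemophilia B factor that activates factor X, ranged from 691 to 813 and from 575 to 974 CPM. Their log2 fold changes were 0.08 ± 0.12 and -0.03 ± 0.14, and restricted 4 was the highest library for both. F7 and F10 lie next to each other in the rat genome, as RefSeq annotates it on GRCr8.

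These factors work only after Ggcx, the carboxylase that uses vitamin K, has modified them in the endoplasmic reticulum. Ggcx (ENSRNOG00000012975) had 111, 99.9, 117, 94.97 and 108 CPM in normal 1 to 5 and 75.5, 66.9, 92.8, 90.3 and 74.7 in restricted 1 to 5. Every restricted library was below every normal one. Ggcx fell by 0.41 ± 0.11 on the log2 scale (adjusted p 0.0497). The call was lost on leaving out any library but restricted 3 (up to 0.116, without normal 3). With Kdm5d as a covariate the log2 fold change was -0.52 and did not pass (adjusted p 0.199). That fit called 0.954% of all genes. For Vkorc1, which regenerates vitamin K, the means were 131 ± 14.7 and 107 ± 34.1 CPM (SD, n = 5), with an adjusted p of 0.427.

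F5 (ENSRNOG00000057855), the cofactor that speeds factor X, was the coagulation factor proper with the largest change. Its levels were 316, 353, 313, 283 and 322 CPM in normal 1 to 5 and 471, 337, 416, 567 and 356 in restricted 1 to 5. All restricted libraries were above the normal mean and 4 of 5 above every normal library, restricted 2 being the exception. The log2 fold change was 0.44 ± 0.14 (95% interval 0.13 to 0.74) and did not pass (adjusted p 0.103; 0.0361 in DESeq2). With Kdm5d as a covariate, a fit resting largely on restricted 5, it was 0.15 (adjusted p 0.783). F13b, the carrier subunit of the factor that crosslinks fibrin, ranged from 259.8 to 335 CPM in normal and from 244 to 365 in restricted libraries (log2 fold change 0.02 ± 0.13).

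Factor V leaves the endoplasmic reticulum bound to the cargo receptor that Lman1 encodes together with Mcfd2. Lman1 (ENSRNOG00000024470) had 224, 186, 205, 188 and 211 CPM in normal 1 to 5 and 168, 141, 146, 157 and 140.2 in restricted 1 to 5. The groups did not overlap, and Lman1 fell by 0.43 ± 0.09 on the log2 scale (adjusted p 0.0210). Of the fits that leave out 1 library, the call was lost without normal 3 (0.0516), normal 5 (0.0603) or restricted 2 (0.0578). With Kdm5d as a covariate the log2 fold change was -0.55 and did not pass (adjusted p 0.118). For Mcfd2 the means were 200.4 ± 13.03 and 166 ± 31.2 CPM, with an adjusted p of 0.250.

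The 3 fibrinogen chains moved together most clearly in restricted 3 and 4. In restricted 5 their log2 CPM minus the normal mean differed, at -0.10 for Fga, 0.17 for Fgb and 0.004 for Fgg. Fga (ENSRNOG00000024848) had 8503, 7947, 7086, 7350.1 and 8042 CPM in normal 1 to 5 and 8025, 6937, 6369, 11406 and 7253 in restricted 1 to 5. Fgb (ENSRNOG00000007092) had 5679, 6097, 5438, 5605 and 5979.6 CPM in the normal and 5639.7, 5632, 4842, 9208 and 6455 in the restricted libraries. Fgg (ENSRNOG00000025074) had 6339, 5793, 5227, 5275 and 5958 CPM and 5457, 5199, 4514, 9134 and 5719 CPM. For all 3 chains restricted 4 was the highest and restricted 3 the lowest of the 10 libraries, with the normal libraries between. Log2 fold changes were 0.04 ± 0.16, 0.14 ± 0.16 and 0.07 ± 0.18, with adjusted p of 0.921, 0.671 and 0.864. Without restricted 4 they were -0.11, -0.02 and -0.12. The chains kept similar proportions in the means. Fga to Fgg count ratios were 1.36 ± 0.0206 in normal and 1.35 ± 0.094 in restricted libraries (SD, n = 5). Fgb to Fgg ratios were 1.01 ± 0.0681 and 1.07 ± 0.0466.

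The fibrinogen genes are neighbours in the order Fgg, Fga, Fgb, and their promoters are shown because the genes moved together in restricted 3 and 4. Each line gives the 250 bases before the RefSeq start site on GRCr8, read 5′ to 3′ on the gene's strand. Fga is at chr2:170671919-170672168 on the plus strand, Fgb at chr2:170700876-170701125 on the minus strand and Fgg at chr2:170652833-170653082 on the plus strand. Capitals mark CTGGGAA, the core of interleukin-6 response elements, and TTGCNNAA, a form of the C/EBP site, each searched on both strands.
Fga: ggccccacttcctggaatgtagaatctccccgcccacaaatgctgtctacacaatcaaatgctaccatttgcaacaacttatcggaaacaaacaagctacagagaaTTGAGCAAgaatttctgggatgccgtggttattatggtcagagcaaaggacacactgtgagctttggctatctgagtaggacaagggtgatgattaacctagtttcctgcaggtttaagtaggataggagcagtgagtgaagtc
Fgb: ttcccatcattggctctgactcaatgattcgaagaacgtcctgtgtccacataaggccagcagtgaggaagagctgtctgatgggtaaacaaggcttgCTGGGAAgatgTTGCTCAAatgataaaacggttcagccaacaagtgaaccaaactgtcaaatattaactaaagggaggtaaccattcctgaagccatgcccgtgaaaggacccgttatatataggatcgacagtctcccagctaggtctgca
Fgg: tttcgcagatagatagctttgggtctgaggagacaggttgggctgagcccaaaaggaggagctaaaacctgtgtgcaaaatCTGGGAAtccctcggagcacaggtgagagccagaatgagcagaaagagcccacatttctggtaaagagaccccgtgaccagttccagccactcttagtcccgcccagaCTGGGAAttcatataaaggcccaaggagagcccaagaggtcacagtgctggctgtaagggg
Fgb held CTGGGAA starting 152 bases and the C/EBP form starting 141 bases before its start site. Fgg held CTGGGAA at 169 and at 61 bases, and Fga held the C/EBP form at 144 bases and no exact CTGGGAA. Among 30 of the 39 genes with a promoter in the RefSeq table, CTGGGAA was found for 6 of 18 coagulation and 3 of 12 complement genes, beside 9.56% of 33469 rat promoters. TTGCNNAA was found for 5 of 18 and 6 of 12, beside 9.22%. The hepatocyte nuclear factor 1 core GTTAAT was found for 6 and 4, beside 6.45%, and that factor's full palindrome and CAAAGTCCA, the site of hepatocyte nuclear factor 4, for none, beside 0.00299% and 0.338%. GTTAAT is also the start of the palindrome. These matches are letters only, and binding was not measured.

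**Figure D3:**
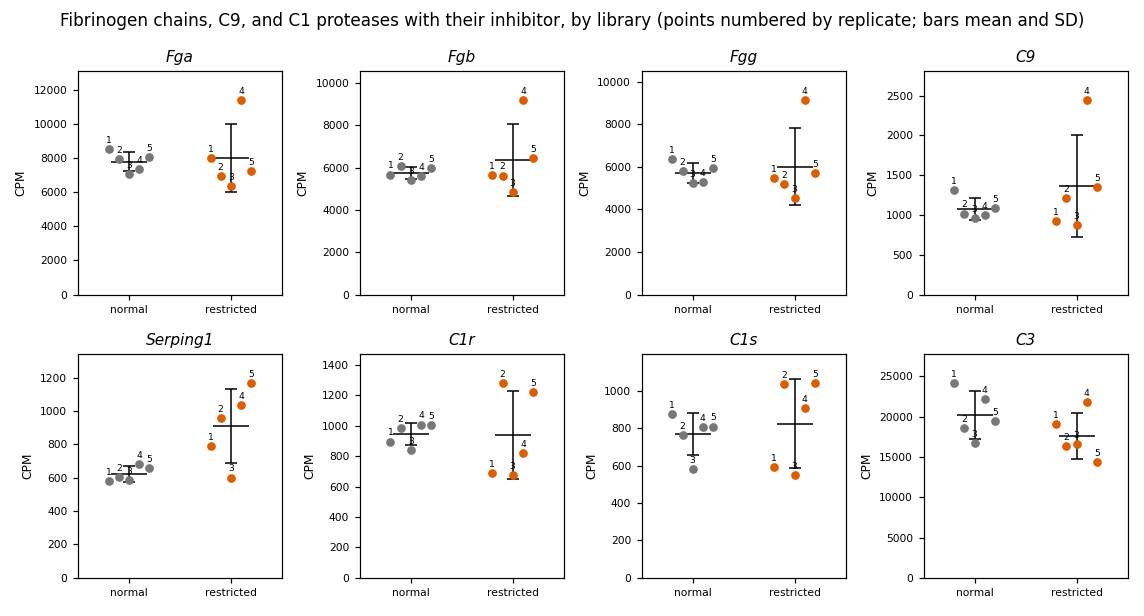
CPM (y axis, from 0) of the 3 fibrinogen chains, C9, Serping1, C1r, C1s and C3 in normal (grey) and restricted (orange) libraries, with points numbered by replicate and bars for mean ± SD (n = 5). Restricted 4 stands above all other libraries for Fga, Fgb, Fgg and C9, while C1r and C1s are highest in restricted 2 and 5.

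The contact system, which starts clotting on charged surfaces, had 0 of 3 genes past the test and all 3 positive. F12 ranged from 707 to 897 CPM in normal and from 706 to 1091 in restricted libraries. Klkb1, plasma prekallikrein, had 262 to 307 and 291 to 360.1 CPM, each restricted value exceeding the normal mean (log2 fold change 0.14 ± 0.09, adjusted p 0.428). F11, its neighbour in the genome, had 109 CPM in normal 1 and 166 to 206 in the other libraries of either group.

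None of the 4 anticoagulants passed the test. Serpinc1 (ENSRNOG00000002783), antithrombin, had 2001, 2118, 1981, 2073 and 2232 CPM in normal 1 to 5 and 2242, 1827, 2225, 2558 and 1880.0 in restricted 1 to 5. Restricted libraries lay on both sides of the normal range (log2 fold change 0.04 ± 0.12; 95% interval -0.21 to 0.30; adjusted p 0.869). Proc (ENSRNOG00000014376), protein C, which inactivates factor V, had 416, 463, 459, 458 and 494 CPM in the normal and 407, 369, 437, 437 and 389 in the restricted libraries. All 5 restricted values were below the normal mean, and 3 were below every normal library (log2 fold change -0.17 ± 0.09, adjusted p 0.324). Pros1, the cofactor of protein C, had the narrowest interval of the 39 genes, a log2 fold change of 0.05 ± 0.08 (-0.11 to 0.22). Serpind1, heparin cofactor II, ranged from 729 to 863 and from 667 to 923 CPM (0.04 ± 0.12).

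Of the 4 genes of clot breakdown 0 passed and 3 were negative. Plg (ENSRNOG00000017223), plasminogen, had 3526, 4166, 4420.4, 3956 and 4298 CPM in normal 1 to 5 and 3937, 3277, 4339, 3574 and 3325 in restricted 1 to 5. Restricted 2 and 5 were below all normal libraries and the other 3 were within the normal range (log2 fold change -0.14 ± 0.12, adjusted p 0.545). Cpb2 (ENSRNOG00000010935), the carboxypeptidase that slows clot breakdown, had 525, 589, 581, 481 and 548 CPM in the normal and 466, 371, 468, 585 and 397 in the restricted libraries. It was below every normal library in 4 of 5 restricted libraries, all but restricted 4 (log2 fold change -0.25 ± 0.13, adjusted p 0.287). Serpinf2, the inhibitor of plasmin, ranged from 949 to 1131 and from 871 to 1067 CPM (-0.13 ± 0.10). Hrg, a glycoprotein that binds plasminogen and heparin, ranged from 1196 to 1502 and from 1067 to 1849 CPM, and had the opposite sign (0.22 ± 0.15, adjusted p 0.425).

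A pair of genes acts in both systems. Serping1 (ENSRNOG00000007457) encodes C1 inhibitor, which blocks C1r and C1s as well as kallikrein and factor XII. It had 579, 601, 586, 683 and 659 CPM in normal 1 to 5 and 790.2, 959, 601, 1037 and 1166 in restricted 1 to 5. Of the restricted libraries, 4 of 5 were above every normal one, and restricted 3 was within the normal range. The log2 fold change was 0.55 ± 0.16 (95% interval 0.21 to 0.89) and did not pass (adjusted p 0.0758; 0.0146 in DESeq2), but it passed without restricted 3 (0.67, adjusted p 0.0170, beside 3.75% of all genes). With Kdm5d as a covariate it was 0.92 and did not pass (adjusted p 0.0830). Restricted 5, the highest restricted library, is the only one of its group with Kdm5d counts. Vitronectin and this inhibitor are counted with coagulation, and counting them with complement left both class medians unchanged. Vtn (ENSRNOG00000010031), vitronectin, which binds plasminogen activator inhibitor and the terminal complement complex, had 2919.5, 3418, 3464, 3387 and 3512 CPM in the normal and 2695, 2453, 2953, 3523 and 3084 in the restricted libraries. Restricted 1 and 2 were below all normal libraries and restricted 4 was just above them (log2 fold change -0.18 ± 0.12, adjusted p 0.429).

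**Figure D4:**
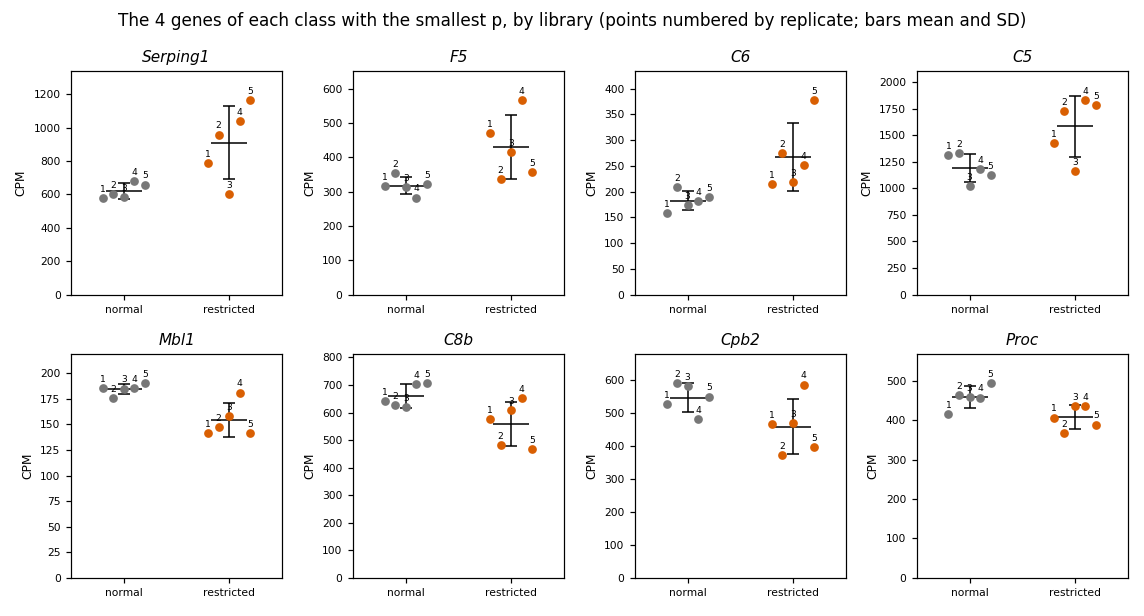
CPM (y axis, from 0) of the 4 genes of each class with the smallest p, in normal (grey) and restricted (orange) libraries; points are numbered by replicate and bars give mean ± SD (n = 5). Serping1, F5, C6 and C5 have higher and Mbl1, C8b, Cpb2 and Proc lower restricted means, and the groups overlap for each gene but C6.

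The proteases of C1, which start the classical pathway, varied widely between restricted libraries, while their group means were close. C1r had 841 to 1007 CPM in normal libraries, and 691, 1279, 677, 821 and 1219 in restricted 1 to 5. C1s, its substrate and neighbour, had 582 to 877 CPM in the normal and 591, 1039.7, 551, 908 and 1042 in the restricted libraries. Restricted 2 and 5 were above every normal library for both genes. Log2 fold changes were -0.01 ± 0.18 and 0.10 ± 0.19 (adjusted p 0.979 and 0.804). The ratio of Serping1 to C1r counts, the inhibitor over its target, was 0.647, 0.610, 0.697, 0.678 and 0.658 in normal 1 to 5 and 1.14, 0.749, 0.888, 1.26 and 0.957 in restricted 1 to 5. Its groups did not overlap, although those of the ratio of Serping1 to C1s did; these 2 are among 12 ratios computed and described with no test. Summed macrophage markers were also highest in restricted 2 and 5, at 1974 and 2559 CPM, against 1030 to 1340 in the other restricted and 929 to 1205 in normal libraries. Their part in C1r, C1s, Serping1 and C6 was not tested, and in whole liver more cells of a type and more RNA per cell cannot be told apart.

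In the lectin pathway 0 of 3 genes passed the test. Mbl1 (ENSRNOG00000011706), a mannose-binding lectin that recognises sugars on microbes, had 186, 176, 185, 186 and 190.3 CPM in normal 1 to 5 and 142, 148, 158, 181 and 141 in restricted 1 to 5. It was below every normal library in 4 of 5 restricted ones, with restricted 4 inside the normal range. The log2 fold change was -0.26 ± 0.09 (95% interval -0.45 to -0.07) and did not pass (adjusted p 0.124; 0.0435 in DESeq2). With Kdm5d as a covariate, a fit resting largely on restricted 5, the Mbl1 change was -0.39 and did not pass (adjusted p 0.227). Masp1 and Masp2 encode the proteases that mannose-binding lectins carry. Masp1 had 228 to 272 and 258 to 320.0 CPM, each restricted value exceeding the normal mean (0.19 ± 0.10, adjusted p 0.283), and Masp2 had 222 to 258 and 207 to 253 CPM (-0.06 ± 0.09).

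C3 (ENSRNOG00000046834), on which all pathways meet, had the most counts of the complement genes. It had 24151, 18550.4, 16712, 22198 and 19479 CPM in normal 1 to 5 and 19096, 16323, 16637, 21762 and 14405 in restricted 1 to 5. Restricted 2, 3 and 5 were below all normal libraries (log2 fold change -0.20 ± 0.16; 95% interval -0.53 to 0.14; adjusted p 0.507). Cfb (ENSRNOG00000051235), the protease of the alternative pathway, had 2324, 2373, 2198, 2339 and 2442 CPM in the normal and 2395, 2457, 2485, 3224 and 2711 in the restricted libraries. For Cfb, 4 of 5 restricted libraries were above every normal one, all but restricted 1, but the change did not pass (0.18 ± 0.11, adjusted p 0.384). Cfd, which cuts factor B and is known mainly as a product of fat cells, was low at 11.6 to 15.5 and 11.2 to 22.8 CPM (0.27 ± 0.19, adjusted p 0.435). Of 5 fat cell markers, Cidea alone was in the table, at 1.21 to 4.05 CPM over all libraries.

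Of the 3 regulators of C3b and C4b 0 passed the test. Cfi, which cuts C3b and C4b, ranged from 942 to 1155 CPM in normal and from 836 to 1361 in restricted libraries (log2 fold change 0.08 ± 0.14). C4bpa and C4bpb, the chains of C4b-binding protein, ranged from 748 to 1128 and 400.1 to 536 CPM in normal libraries. In restricted libraries they ranged from 590.4 to 1176 and from 367 to 554 CPM, with log2 fold changes of -0.05 ± 0.19 and -0.07 ± 0.13. Restricted 4 was the highest library for all 3 regulators.

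The terminal pathway divided by gene, with 3 of 6 positive, 3 negative and 0 past the test. C5 (ENSRNOG00000018899), whose cleavage starts the pore, had 1319, 1334, 1023, 1181 and 1124 CPM in normal 1 to 5 and 1424, 1728, 1162, 1834 and 1788 in restricted 1 to 5. All but restricted 3 were above every normal library (log2 fold change 0.41 ± 0.14, 95% interval 0.10 to 0.72, adjusted p 0.134, and 0.0462 in DESeq2). With Kdm5d as a covariate, a fit resting largely on restricted 5, the C5 change was 0.59 and did not pass (adjusted p 0.231). C6 (ENSRNOG00000024115), the next component to bind, had 158, 209, 173, 182 and 189.7 CPM in the normal and 214, 275, 218, 251 and 378 in the restricted libraries. Every restricted value was above every normal one, by a narrow margin in restricted 1 and 3, and restricted 5 was the highest. The log2 fold change was 0.55 ± 0.15 (95% interval 0.22 to 0.88) and did not pass (adjusted p 0.0635; 0.0132 in DESeq2). It passed without restricted 1 (0.0470, beside 3.76% of all genes) or restricted 3 (0.0495), and with Kdm5d as a covariate, where it was 1.08 (adjusted p 0.0298, beside 0.954% of all genes). Restricted 5, where C6 was highest, is the only restricted library with Kdm5d counts, so in that fit the diet effect rests largely on 1 library. Without restricted 5 the change was 0.39 (adjusted p 0.0771).

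The C8 chains were all negative. C8b (ENSRNOG00000007639) had 640.4, 627, 621, 704 and 707 CPM in normal 1 to 5 and 575, 481, 609, 652 and 468 in restricted 1 to 5. It was below every normal library in 4 of 5 restricted ones, all but restricted 4 (log2 fold change -0.24 ± 0.11, adjusted p 0.255). C8a, its neighbour, ranged from 891 to 1050.1 and from 716 to 1121 CPM (-0.11 ± 0.12), and C8g from 137 to 210.2 and from 128 to 197 CPM (-0.17 ± 0.15). C9 (ENSRNOG00000013736), which closes the pore, had 1309, 1019, 957, 1003 and 1085 CPM in the normal and 928, 1209.5, 869, 2446 and 1354 in the restricted libraries. Restricted 4 was far above the rest, and the log2 fold change of 0.34 ± 0.25 (adjusted p 0.476) was 0.04 without it.

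The spread between restricted libraries was wider than that between normal ones for 37 of the 39 genes (94.9%), beside 66.3% of all genes tested, the exceptions being F11 and Pros1. The median SD of log2 CPM was 0.11 in normal and 0.25 in restricted libraries for coagulation, 0.15 and 0.28 for complement, and 0.19 and 0.24 for all genes. Restricted 4 held the highest value of the 10 libraries for 21 of the 39 genes (53.8%), 12 of coagulation and 9 of complement, beside 14.4% of all genes, and the lowest for 0. Its median deviation from the normal mean was 0.31 (log2) for coagulation and 0.25 for complement, against -0.13 to 0.03 and -0.12 to -0.01 in the other 4 restricted libraries. Restricted 2 held the lowest value for 11 genes (28.2%, beside 10.1% of all genes), restricted 5 for 8 (20.5%, beside 13.8%) and restricted 3 for 7 (17.9%, beside 12.1%).

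**Figure D5:**
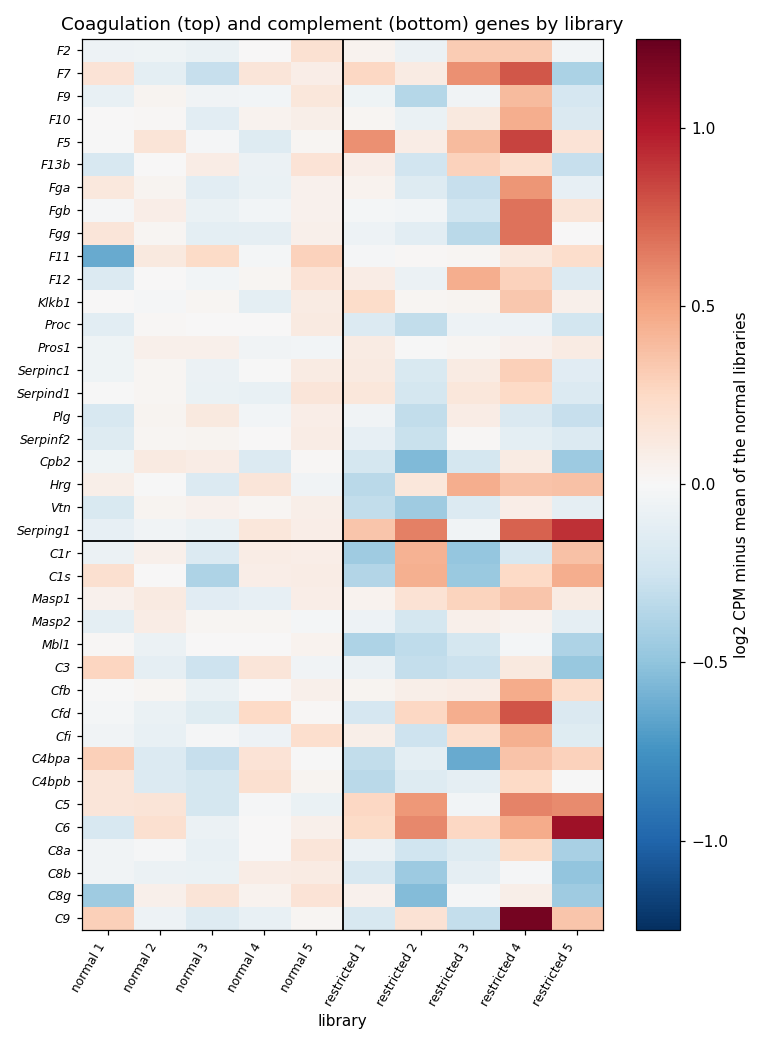
Log2 CPM minus the mean of the normal libraries (colour) for each gene (rows, coagulation above and complement below the line) in each library (columns, normal left and restricted right of the line). Restricted 4 is red for most genes of both classes, and Serping1, C5 and C6 are red in restricted 2, 4 and 5.

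Other genes of both systems, from a list of 66, completed the picture. On the coagulation side 29 of 31 were tested, 0 rose (beside 1.87% of all genes) and 2 fell (beside 2.22%), Ggcx and Lman1 as above. The median log2 fold change there was -0.03, with 13 genes positive and 16 negative. Among the positive ones, the kininogen genes Kng1 and Kng2l1 had larger estimates, 1.21 and 0.93, but did not pass (adjusted p 0.271 and 0.181). Both were highest in restricted 4, at 4320 and 11466 CPM. On the complement side 25 of 35 were tested, 1 rose and 0 fell, with a median of 0.26 and 20 of 25 positive. The gene that rose was Cfp (ENSRNOG00000025811), properdin, which stabilises the alternative pathway convertase and is made by white blood cells. It had 60.2, 57.6, 56.9, 57.3 and 51.6 CPM in normal 1 to 5 and 64.9, 118, 80.9, 82.5 and 102 in restricted 1 to 5, with no overlap. Its log2 fold change was 0.66 ± 0.14 (adjusted p 0.0215), and the call was lost without normal 3 (0.0517), normal 4 (0.0560) or normal 5 (0.0640). With Kdm5d as a covariate the log2 fold change was 0.86 and did not pass (adjusted p 0.0864). C1qa, C1qb and C1qc, the subunits of C1q that macrophages make, had log2 fold changes of 0.69, 0.71 and 0.67 with adjusted p of 0.150, 0.140 and 0.232. C4a and C4b were also among the 20 positive genes, at 0.38 and 2.21 (adjusted p 0.240 and 0.209), while 5 genes were negative. Both Cfp and the C1q genes were highest in restricted 2 and 5, the libraries with the highest summed macrophage markers. The C1q genes are themselves among the markers summed, so for them this match is partly built in. The part of macrophages was not tested.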

How the data were processed

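Counts, FPKM, fold changes and p-values came from 1 deposited table with a column per library. Per the submitters' processing notes, bcl2fastq, fastp and HTSeq were used with build rn7, and the series' design text adds a Q30 filter and HISAT2; versions, annotation and strand setting were not stated. Per the file headers, the count columns hold the authors' raw counts and the FPKM columns their length-scaled values. The deposited ratio (fold change), its log2 and the deposited p-value are the authors' own, from a test that is not named.

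The members and gene lists were chosen with earlier results of these data known. The counts were analysed in edgeR 4.0.16 (R 4.3.3) after filterByExpr (minimum count 10; 12367 genes kept, 188 removed), with TMM scaling, robust dispersions and a two-sided quasi-likelihood test, Benjamini-Hochberg adjusted over all genes tested. The fit was tested on simulated data. Errors of log2 fold changes are SEs. No pair of libraries of a group agreed within counting noise (chi-square per degree of freedom at least 21.6). Values in every library are printed for the 4 genes of each class with the smallest p, the 2 with the largest change, the highest FPKM, fixed genes (F2, fibrinogen chains, Serpinc1, Plg, C3, C9, Cfb, Mbl1) and, of other pathway genes, those past the test; C1r and C1s values, and gene ratios, were chosen after seeing the data. Alternatives were RLE and upper-quartile scaling, other filters, DESeq2 1.42.0, limma-voom (limma 3.58.1), a replicate block, a Kdm5d covariate and each library left out; the fit of libraries with Kdm5d counts only was added after the data were seen.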

Additional observations from a re-analysis of the deposited data

Results flagged for a closer look

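In 78 groups of 5 libraries (39 genes, 2 diets), 4 held a library set apart from the others by Dixon's test at the 95% level, which chance gives in about 5 of every 100. Fgg had 9134 CPM in restricted 4, while the remaining restricted values ran from 4514 to 5719. Vtn had 2919.5 CPM in normal 1, the lowest of its group, where C8g was also lowest at 137 CPM. Cfi had 1155 CPM in normal 5, the highest of its group.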

How the results depend on the processing

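With RLE or upper-quartile scaling, no filter, a filter of 1 CPM in 5 libraries, limma-voom or the replicate block, none of the 39 genes passed, beside 2.14% to 4.2% of all genes, and none changed sign; the block called 265 genes in all, and Cfp, Ggcx and Lman1 missed the threshold there (0.0578, 0.0815 and 0.0564). Deviations of same-numbered libraries had correlations of -0.21 to 0.14, so the numbers do not pair the libraries. DESeq2 called 1049 genes in all, 2 of coagulation and 3 of complement. With 1 library left out, 213 to 470 genes were called, and 0 to 1 of each class; the lower counts came from leaving out normal 3, 4 or 5 (265, 226 and 213) or restricted 2 or 4 (231 and 301). The coagulation median then ran from -0.01 to 0.10, the complement median from -0.05 to 0.08 and their difference from -0.02 to 0.13. Signs changed for genes near 0: F9 (-0.1502 to 0.0405), F10 (-0.0174 to 0.1392), F13b (-0.0482 to 0.0953), Fga (-0.1107 to 0.1105), Fgb (-0.0165 to 0.2254), Fgg (-0.1176 to 0.1573), F11 (-0.0836 to 0.1142), Serpinc1 (-0.0141 to 0.0975), Serpind1 (-0.008 to 0.0959), C1r (-0.1512 to 0.0835), Cfi (-0.0132 to 0.1553) and C4bpa (-0.1551 to 0.0662). With Kdm5d as a covariate 118 genes were called, 99 higher and 19 lower, with 1 of complement, a coagulation median of -0.14 and a difference of medians of -0.11. That fit's diet effect rests largely on restricted 5. Signs changed there for F2 (-0.0555), F7 (-0.46), F10 (-0.21), F13b (-0.31), Fga (-0.12), Fgg (-0.0149), F12 (-0.20), Serpinc1 (-0.16), Serpind1 (-0.20), C1r (0.38), Cfd (-0.22), Cfi (-0.18) and C4bpa (0.27). In the libraries with Kdm5d counts alone, added after the data were seen the restricted arm is 1 library, assumed to vary like the normal ones, so its counts describe that library and not the diet: 802 genes (632 higher; 6.49%) and 1 of each class were past the threshold, with a coagulation median of -0.13 and a difference of -0.11. Signs changed for F2 (-0.0355), F7 (-0.41), F10 (-0.19), F13b (-0.30), Fga (-0.10), F12 (-0.18), Serpinc1 (-0.15), Serpind1 (-0.18), C1r (0.37), Cfd (-0.20), Cfi (-0.16) and C4bpa (0.28). The cause of these changes was not tested. The lowest count of any of the 39 genes in a library was 174, for Cfd, where counting error is largest.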
